A study of Mus musculus with 54 samples.

Results

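ADAMTS, ADAM and cathepsin genes encode the metalloproteases and lysosomal proteases of the follicle wall, and 9 of them are described here across both follicle sides with and without hCG. They were chosen by symbol (*Adamts1*, *Adamts2*, *Adamts4*, *Adamts5*, *Adamts9*, *Adam8*, *Ctsl*, *Ctsb* and *Ctsd*) from the 25149 genes of the count and TPM tables, and all 9 were found. This choice was made with earlier results of these data known. The study asked how the side of the follicle wall that ruptures differs from the side that stays intact, before and after an ovulatory stimulus. Secondary follicles of female CD-1 mice aged 14 to 16 days were grown in alginate for 8 days to the antral stage, kept in maturation medium for 12 h and cut with needles, and each side was sequenced with Smart-Seq2, an amplification protocol for very small amounts of RNA.

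All groups shared the maturation medium, which held FBS, EGF and recombinant FSH, and differed by side and by hCG, a stand-in for luteinizing hormone (LH). Without hCG there were 15 libraries of the putative unruptured side and 14 of the putative ruptured side. In these follicles rupture had not occurred, and the future rupture site was judged from where the antrum swelled, aided by machine learning on images. Post-hCG there were 12 libraries of the unruptured side and 13 of the ruptured side. Follicles had been freed with enzymes, a step that strips much of the outer theca layer, which regrows in part in culture. By the labels the material was cumulus-oocyte complex, but by the study's methods those complexes were discarded. The summed level of 11 oocyte genes had a median of 0.13 TPM or less in each group.

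ADAMTS enzymes are secreted metalloproteases that cut proteoglycans and procollagens in the matrix between cells. A convertase such as furin can remove their propeptide, and TIMP3 inhibits several of them. Cathepsins are proteases of the lysosome, where an acid milieu activates them, and cystatins inhibit those of the cysteine class. At ovulation in the mouse, ADAMTS1 and cathepsin L are known as LH-induced proteases of granulosa cells that depend on the progesterone receptor, and ADAMTS1 cleaves versican in the matrix of the expanding cumulus.

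The genes lie on 7 chromosomes of GRCm38. *Adamts1* (chr16:85793827-85803113) and *Adamts5* (chr16:85856173-85901828) are neighbours on the minus strand, 53059 bases apart, with 0 protein-coding genes between them in the GENCODE annotation. The others are *Adamts4* on chromosome 1, *Adamts9* on chromosome 6, *Adam8* and *Ctsd* on chromosome 7, *Adamts2* on chromosome 11, *Ctsl* on chromosome 13 and *Ctsb* on chromosome 14. RefSeq promoters (GRCm38.p6, 250 bases before to 50 after the start of the gene) were matched for 6 of the 9 genes, without an entry for *Adamts4*, *Adamts5* and *Ctsb*. Shown for the members with the clearest changes with hCG are the promoters of *Adamts1* (chr16:85803064-85803363, minus strand) and *Ctsl* (chr13:64370471-64370770, minus strand), which rose on both sides, and of *Adamts2* (chr11:50601835-50602134, plus strand), which fell on both. Each is written 5′ to 3′ along the strand of its gene. Capitals mark matches to 7 motifs searched on both strands, namely GGGCGG (GC box), TGANTCA (AP-1), CCAAT (bound by NF-Y), TGACG (core of a cAMP response element), AAGGTCA (SF-1), AGAACA (core of steroid receptor sites) and TATAAA (a core promoter box).
Adamts1: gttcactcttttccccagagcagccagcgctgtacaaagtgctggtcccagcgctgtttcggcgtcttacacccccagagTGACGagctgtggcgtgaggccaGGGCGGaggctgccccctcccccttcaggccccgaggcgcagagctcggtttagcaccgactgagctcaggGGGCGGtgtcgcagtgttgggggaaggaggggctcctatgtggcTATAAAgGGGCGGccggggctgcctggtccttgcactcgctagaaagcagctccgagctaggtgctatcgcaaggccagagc
Ctsl: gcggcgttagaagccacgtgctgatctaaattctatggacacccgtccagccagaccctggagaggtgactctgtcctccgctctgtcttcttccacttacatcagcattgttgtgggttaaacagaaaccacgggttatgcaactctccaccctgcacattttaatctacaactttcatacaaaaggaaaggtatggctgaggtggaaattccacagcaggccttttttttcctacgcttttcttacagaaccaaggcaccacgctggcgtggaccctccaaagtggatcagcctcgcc
Adamts2: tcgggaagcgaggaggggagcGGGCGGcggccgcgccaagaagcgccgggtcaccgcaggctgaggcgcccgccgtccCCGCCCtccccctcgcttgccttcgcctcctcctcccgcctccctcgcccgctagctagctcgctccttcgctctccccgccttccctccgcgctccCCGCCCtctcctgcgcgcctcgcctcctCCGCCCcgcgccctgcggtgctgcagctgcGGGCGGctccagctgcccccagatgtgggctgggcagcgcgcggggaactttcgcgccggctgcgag

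The *Adamts1* window held 3 GC boxes, 1 TGACG and 1 TATAAA, the last one 32 bases before the start. The *Adamts2* window held 5 GC boxes and none of the other motifs. The *Ctsl* window held no match to any of the 7, but it is set on RefSeq's start of the gene and lies whole inside the GENCODE gene, 120 bases downstream of the GENCODE start, so the bases before that start were not searched. GC boxes were in 35.7% of the 32851 promoters of the table, CCAAT in 37.4%, TGACG in 20.8%, AGAACA in 19.0%, TATAAA in 13.6%, TGANTCA in 7.81% and AAGGTCA in 4.72%. G and C made up 64.7% of the *Adamts1* window, 77.3% of that of *Adamts2* and 50% of that of *Ctsl*, against a median of 52.7%. No match overlapped another in these windows, and a match of letters is not a measured binding site.

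Libraries held between 1497071 and 2834734 counts, with the lowest median (1744895) in putative ruptured sides. By the well names in the labels each of the 4 groups filled its own stretch of consecutive wells, so neither hCG nor side can be told apart from plate position. Nothing in the labels ties a library to an animal or follicle, so p-values measure only the spread between these libraries. Each follicle was cut into both sides, so libraries of opposite sides can stem from the same follicle. The main tests treated all libraries as independent. Libraries of the putative unruptured side stood apart in 2 cases, replicate 1 with 157 TPM of summed oocyte genes and replicate 7 with 2810 TPM of summed theca and stroma genes. Without either library the number of members called was still 3 between the sides without hCG, 6 for hCG on the unruptured side and 1 for the interaction.

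On the TPM scale, which allows for gene length, *Ctsl* was the most abundant of the 9 genes in each group. *Adamts5* and *Adam8* had low levels in each group, and *Adamts2* was the lowest of the 9 by mean on the ruptured side post-hCG, at 0.552 TPM. By mean TPM *Ctsl* ranked 102nd of all genes in putative unruptured sides and 13th on the ruptured side post-hCG. *Ctsb* and *Ctsd* ranked between 200 and 303 in each group. *Adamts1* moved from rank 4067 in putative unruptured sides to rank 262 on the ruptured side post-hCG. *Adamts5* ranked 12234th at its lowest and 8925th at its highest.

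**Figure D1:**
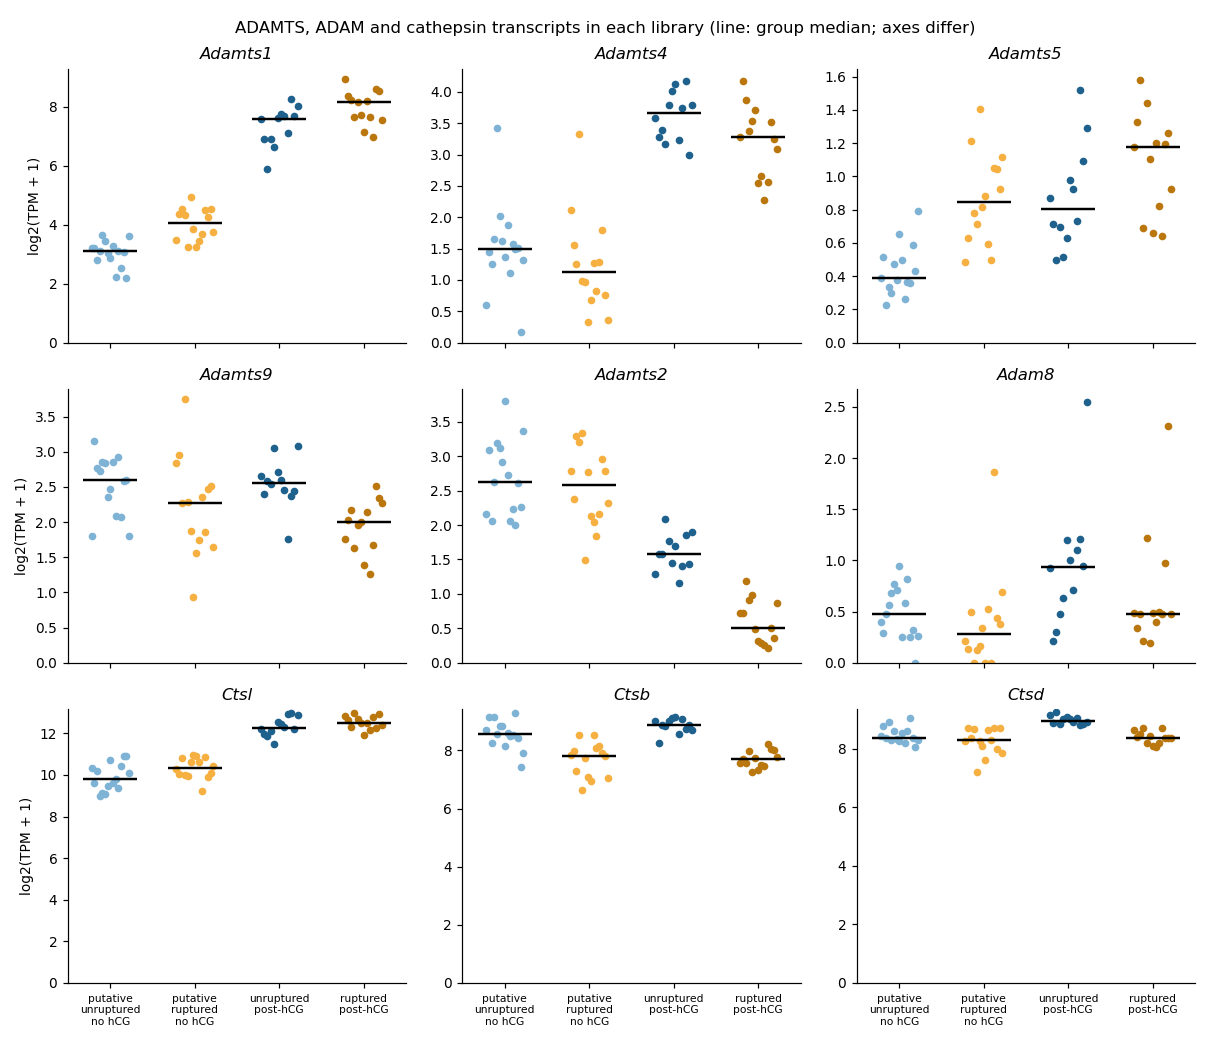
Level of each of the 9 genes as log2(TPM + 1) in each of the 54 libraries, by follicle side and hCG. Points are libraries and lines are group medians. *Adamts1* and *Ctsl* lie higher in all libraries post-hCG than in all libraries without hCG of the same side, and *Adamts2* on the ruptured side post-hCG lies between 0.16 and 1.27 TPM, below all libraries without hCG. Axes differ between panels.

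Differential expression was tested with the edgeR quasi-likelihood F-test on rounded counts, with p-values adjusted by Benjamini-Hochberg over all genes tested and an FDR of 0.05. Of the 9 genes, 8 passed the filter on low counts in each comparison and *Adam8* did not. With hCG on the unruptured side 5 rose and 1 fell, where 25.4% of the 9320 genes tested were called higher and 27.7% lower. With hCG on the ruptured side 5 rose and 1 fell, where 29.7% of the 8531 genes tested were called higher and 30.4% lower. With hCG so many genes were called that the number of members called is not a result about the members, and the size of their changes is set against all genes instead. Without hCG 2 members were higher and 1 was lower in putative ruptured sides, where 8.84% of 9063 genes were higher and 8.96% lower. Post-hCG 2 members were higher and 4 were lower on the ruptured side, where 10% of 8585 genes were higher and 11.3% lower. For the interaction of side and hCG 1 member passed with a negative value, where 4.25% of 10013 genes were positive and 4.65% negative.

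Because the members were chosen with earlier results of these data known, their medians are a description and not a test of the set. The median log2FC of the 8 members with hCG was 0.81 for unruptured and 0.45 for ruptured sides, against -0.03 and -0.00 over all genes tested. Between the sides it was -0.14 without hCG and -0.22 post-hCG, against -0.01 and 0.01. Scaling by library totals in place of TMM factors shifted the median of all genes to -0.246 (hCG, unruptured side), -0.325 (hCG, ruptured side) and -0.137 (sides post-hCG). The split of all calls then moved from 2365 higher and 2582 lower to 1455 and 3844 for hCG on the unruptured side, and from 2532 and 2597 to 1376 and 4242 on the ruptured side. Between the sides it moved from 801 and 812 to 585 and 905 without hCG and from 862 and 971 to 397 and 1830 post-hCG, and for the interaction from 426 and 466 to 230 and 660. Overlap of libraries is described in TPM, not in scaled counts. Between the sides post-hCG the log2 ratio of mean TPM lay below the log2FC of the counts for all 8 members, by 0.07 (*Ctsl*) to 0.36 (*Adamts9*).

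**Figure D2:**
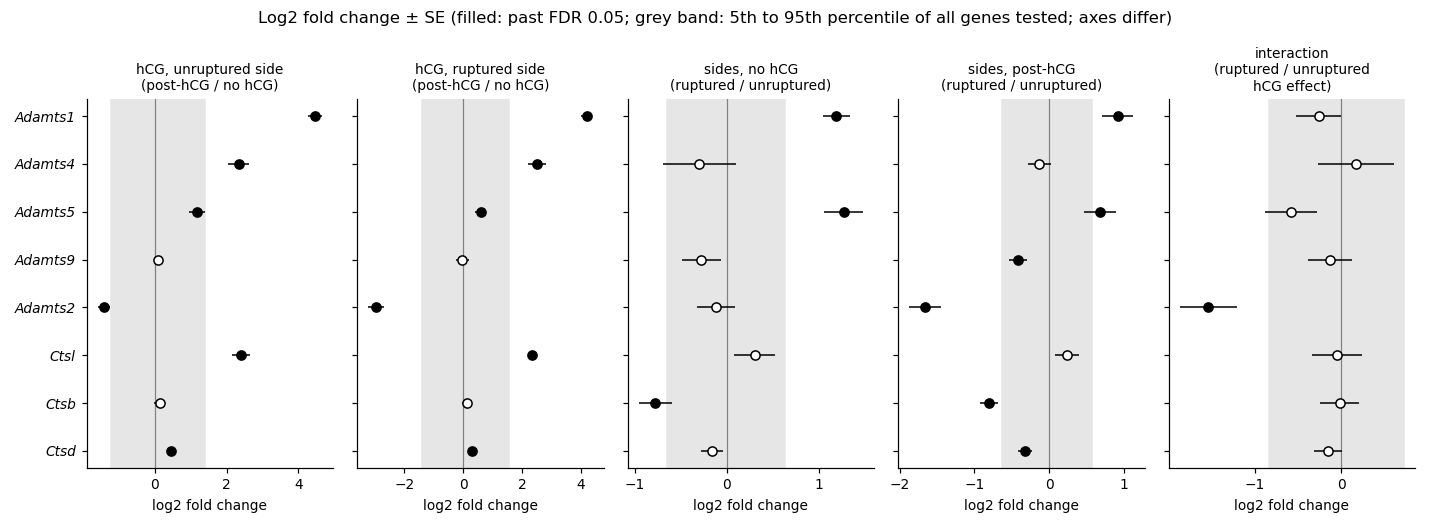
Log2 fold change with its SE for the 8 genes tested in each of the 5 comparisons, with grey bands for the 5th to 95th percentile of all genes tested. Filled points passed an FDR of 0.05. With hCG *Adamts1*, *Adamts4* and *Ctsl* lie right of the band and *Adamts2* left of it on both sides, and *Adamts2* is the filled point of the interaction. *Ctsd* with hCG on the ruptured side, at 0.30, turned to -0.04 with library totals.

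*Adamts1* encodes a secreted protease of versican and other proteoglycans that mice need for full female fertility. Its level without hCG ran from 3.56 to 11.5 TPM (median 7.53) in putative unruptured sides and from 8.39 to 29.7 TPM (median 15.7) in putative ruptured sides. Post-hCG it ran from 58.4 to 307 TPM (median 191) in unruptured sides and from 124 to 493 TPM (median 283) on the ruptured side. All libraries post-hCG lay above all libraries without hCG, on each side. *Adamts1* rose 22.1-fold with hCG on the unruptured side (log2FC 4.46, SE 0.20, edgeR adjusted p = 5.2e-18) and 18.4-fold on the ruptured side (log2FC 4.21, SE 0.19, edgeR adjusted p = 1.6e-18). These were the 25th largest of 9320 and the 49th largest of 8531 log2FC values in the 2 comparisons. It was also 2.28-fold higher in putative ruptured sides (log2FC 1.19, SE 0.15, edgeR adjusted p = 1.8e-06), where 14 of 14 libraries lay above the median of the putative unruptured side. Post-hCG it was 1.89-fold higher on the ruptured side (log2FC 0.92, SE 0.21, edgeR adjusted p = 0.0013), and 10 of 13 libraries lay above the median of the other side. By median the groups rose from putative unruptured over putative ruptured and unruptured post-hCG to ruptured post-hCG, and both side pairs passed the test.

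The neighbour of *Adamts1*, *Adamts5*, encodes an aggrecanase and was far lower. It ran from 0.17 to 0.73 TPM (median 0.31) in putative unruptured sides and from 0.40 to 1.65 TPM (median 0.80) in putative ruptured sides. Post-hCG it ran from 0.41 to 1.86 TPM (median 0.75) in unruptured sides and from 0.56 to 1.99 TPM (median 1.26) on the ruptured side. The groups overlapped in each comparison, and all 14 libraries of the putative ruptured side lay above the median of the putative unruptured side. *Adamts5* was 2.40-fold higher in putative ruptured sides (log2FC 1.27, SE 0.21, edgeR adjusted p = 6.8e-05) and 1.6-fold higher on the ruptured side post-hCG (log2FC 0.68, SE 0.21, edgeR adjusted p = 0.016). It rose 2.25-fold with hCG on the unruptured side (log2FC 1.17, SE 0.23, edgeR adjusted p = 5.8e-05) and 1.51-fold on the ruptured side (log2FC 0.59, SE 0.19, edgeR adjusted p = 0.0079). The call between the sides post-hCG was lost with library totals (log2FC 0.54, edgeR adjusted p = 0.065), and so was that for hCG on the ruptured side (log2FC 0.28, edgeR adjusted p = 0.21). Both were also lost with limma on log2(TPM + 1). Over 9 alternatives the edgeR, DESeq2 and limma adjusted p ran from 0.0084 to 0.28 in the first case and from 0.0014 to 0.21 in the second.

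*Adamts4*, another aggrecanase gene, had low levels without hCG that spread widely. They ran from 0.13 to 9.75 TPM (median 1.82) in putative unruptured sides and from 0.26 to 9.01 TPM (median 1.19) in putative ruptured sides. Post-hCG they ran from 6.93 to 17.0 TPM (median 11.7) in unruptured sides and from 3.82 to 17.0 TPM (median 8.69) on the ruptured side. All libraries post-hCG lay above the median without hCG on their side, but the ranges overlapped. On each side without hCG 1 library gave a large part of the group's *Adamts4* counts, 30.1% for putative unruptured and 34.8% for putative ruptured sides. These libraries also had more of 5 summed cumulus markers, 26.2 TPM against a group median of 6.88 and 99.7 TPM against 12.6. Over all 54 libraries the deviations of *Adamts4* from the group means had a correlation of 0.67 with those of the cumulus sum, and the part of cumulus cells in its differences was not tested. *Adamts4* rose 5.06-fold with hCG on the unruptured side (log2FC 2.34, SE 0.29, edgeR adjusted p = 5.2e-08) and 5.69-fold on the ruptured side (log2FC 2.51, SE 0.30, edgeR adjusted p = 1e-08). Between the sides the log2FC was -0.30 (SE 0.40, edgeR adjusted p = 0.67) without hCG and -0.13 (SE 0.15, edgeR adjusted p = 0.61) post-hCG.

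*Adamts9* encodes a protease of versican and aggrecan. It ran from 2.48 to 7.93 TPM (median 5.07) in putative unruptured sides, from 0.92 to 12.5 TPM (median 3.85) in putative ruptured sides, from 2.38 to 7.5 TPM (median 4.90) on the unruptured side post-hCG and from 1.41 to 4.72 TPM (median 2.99) on the ruptured side post-hCG. It was the ADAMTS gene whose level did not pass the test with hCG, with a log2FC of 0.10 (SE 0.13, edgeR adjusted p = 0.54) on the unruptured side and -0.03 (SE 0.22, edgeR adjusted p = 0.91) on the ruptured side. Post-hCG it was 1.33-fold lower on the ruptured side (log2FC -0.41, SE 0.12, edgeR adjusted p = 0.012), and in TPM 13 of 13 libraries lay below the median of the unruptured side. That call was lost when all 4 groups shared a fit (log2FC -0.40, edgeR adjusted p = 0.14), and over 9 alternatives the edgeR, DESeq2 and limma adjusted p ran from 0.0017 to 0.14. Exons of *A730049H05Rik* on the other strand cover 9.18% of its exons. Smart-Seq2 does not mark strand, so reads in that stretch cannot be told apart.

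*Adamts2* encodes the procollagen N-propeptidase, which trims fibrillar procollagens so that they can assemble. Without hCG it ran from 2.99 to 12.9 TPM (median 5.19) in putative unruptured sides and from 1.82 to 9.05 TPM (median 5.02) in putative ruptured sides, largely overlapping. Post-hCG it ran from 1.23 to 3.25 TPM (median 1.99) in unruptured sides and from 0.16 to 1.27 TPM (median 0.42) on the ruptured side. Of the 13 libraries of the ruptured side, 12 lay below all libraries of the unruptured side post-hCG, and 13 lay below all libraries of the putative ruptured side. *Adamts2* fell 2.68-fold with hCG on the unruptured side (log2FC -1.42, SE 0.17, edgeR adjusted p = 3.4e-08) and 7.78-fold on the ruptured side (log2FC -2.96, SE 0.27, edgeR adjusted p = 3.1e-11). The difference between the sides in this change was tested as an interaction and passed (log2 difference -1.54, SE 0.33, edgeR adjusted p = 0.0012). It was the 144th lowest of 10013 interaction values. Between the sides its log2FC was -0.12 (SE 0.21, edgeR adjusted p = 0.77) without hCG, while post-hCG it was 3.16-fold lower on the ruptured side (log2FC -1.66, SE 0.21, edgeR adjusted p = 1e-06).

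The other 7 members tested did not pass the interaction, which does not show that hCG acted alike on both sides. Their interaction values were -0.26 (SE 0.26) for *Adamts1*, 0.17 (SE 0.44) for *Adamts4*, -0.58 (SE 0.30) for *Adamts5*, -0.13 (SE 0.26) for *Adamts9*, -0.05 (SE 0.29) for *Ctsl*, -0.02 (SE 0.23) for *Ctsb* and -0.15 (SE 0.16) for *Ctsd* on the log2 scale. The smallest edgeR adjusted p among them was 0.24, for *Adamts5*.

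*Adam8* encodes a membrane-bound metalloprotease known mainly from leukocytes. Its counts were too low for the filter, with 38 to 96 counts in all the libraries of a group together and no count in 1 of 15 libraries of the putative unruptured side and 3 of 14 of the putative ruptured side. By median it stood at 0.39 TPM (0 to 0.93), 0.22 TPM (0 to 2.63), 0.92 TPM (0.16 to 4.86) and 0.39 TPM (0.14 to 3.96) in the 4 groups (putative unruptured, putative ruptured, unruptured post-hCG, ruptured post-hCG). In a fit without the filter its log2FC with hCG was 0.99 on the unruptured side (SE 0.35, edgeR adjusted p = 0.030) and 0.81 on the ruptured side (SE 0.45, edgeR adjusted p = 0.18). Between the sides it was -0.41 (SE 0.45, edgeR adjusted p = 0.62) without hCG and -0.59 (SE 0.35, edgeR adjusted p = 0.31) post-hCG.

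*Ctsl* encodes cathepsin L, a cysteine protease. It ran from 513 to 1947 TPM (median 908) in putative unruptured sides and from 609 to 1995 TPM (median 1309) in putative ruptured sides. Post-hCG it ran from 2833 to 8086 TPM (median 4868) in unruptured sides and from 3905 to 8037 TPM (median 5856) on the ruptured side, and neither side overlapped with its libraries without hCG. It rose 5.28-fold with hCG on the unruptured side (log2FC 2.40, SE 0.24, edgeR adjusted p = 5.8e-10) and 5.11-fold on the ruptured side (log2FC 2.35, SE 0.16, edgeR adjusted p = 3.9e-14). *Ctsl* took 0.174% of all counts in putative unruptured sides and 0.855% on the ruptured side post-hCG. Between the sides its log2FC was 0.30 (SE 0.22, edgeR adjusted p = 0.38) without hCG and 0.24 (SE 0.16, edgeR adjusted p = 0.29) post-hCG, so neither pair passed the test. Exons of the antisense gene *Gm47123* cover 26.9% of the *Ctsl* exons and a pseudogene on the same strand covers 6.09%, and their reads cannot be told apart.

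*Ctsb* encodes cathepsin B, also a cysteine protease. It ran from 171 to 628 TPM (median 382) in putative unruptured sides, from 97.7 to 369 TPM (median 225) in putative ruptured sides, from 305 to 564 TPM (median 472) on the unruptured side post-hCG and from 153 to 298 TPM (median 209) on the ruptured side post-hCG. All 14 libraries of the putative ruptured side lay below the median of the putative unruptured side, and post-hCG the sides did not overlap in TPM. *Ctsb* was 1.71-fold lower in putative ruptured sides (log2FC -0.78, SE 0.18, edgeR adjusted p = 0.0030) and 1.74-fold lower on the ruptured side post-hCG (log2FC -0.80, SE 0.12, edgeR adjusted p = 6e-06). With hCG its log2FC was 0.14 (SE 0.15, edgeR adjusted p = 0.46) on the unruptured side and 0.12 (SE 0.16, edgeR adjusted p = 0.55) on the ruptured side. *Fdft1* on the other strand shares 12.8% of the *Ctsb* exons, and its median was 30.8, 48.4, 48.2 and 31.0 TPM in the 4 groups in the same order as above.

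*Ctsd* encodes cathepsin D, an aspartic protease. It ran from 267 to 534 TPM (median 328) in putative unruptured sides, from 147 to 418 TPM (median 310) in putative ruptured sides, from 452 to 611 TPM (median 497) on the unruptured side post-hCG and from 264 to 414 TPM (median 332) on the ruptured side post-hCG. Post-hCG all libraries of the ruptured side lay below all libraries of the unruptured side in TPM, with a log2 ratio of mean TPM of -0.59. The difference in scaled counts was smaller, at 1.25-fold (log2FC -0.32, SE 0.09, edgeR adjusted p = 0.0090). Without hCG the log2FC between the sides was -0.16 (SE 0.12, edgeR adjusted p = 0.39). *Ctsd* rose 1.36-fold with hCG on the unruptured side (log2FC 0.45, SE 0.11, edgeR adjusted p = 0.00087). On the ruptured side it rose 1.23-fold with TMM factors (log2FC 0.30, SE 0.12, edgeR adjusted p = 0.027) but turned to a log2FC of -0.04 with library totals (edgeR adjusted p = 0.75), with edgeR, DESeq2 and limma adjusted p-values from 0.015 to 0.75 over 9 alternatives. *Gm49369* on the same strand covers 34.4% of the *Ctsd* exons, so its reads can be split between both.

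The 5 ADAMTS genes summed to medians of 20.2, 28.1, 212 and 298 TPM in the 4 groups (putative unruptured, putative ruptured, unruptured post-hCG, ruptured post-hCG). *Adamts1* made up 24.4% to 55.2% of that sum (median 36.3%) in putative unruptured sides, 36.6% to 80.7% (median 59.0%) in putative ruptured sides, 77.5% to 93.5% (median 89.5%) on the unruptured side post-hCG and 92.5% to 97.4% (median 94.6%) on the ruptured side post-hCG. *Adamts2* made up medians of 25.6%, 19.0%, 0.948% and 0.169% in the same order. The 3 cathepsins summed to medians of 1639, 1794, 5835 and 6412 TPM, and *Ctsl* made up medians of 54.4%, 71.3%, 83.9% and 91.3% of that sum in that order, the larger part by median also without hCG. These shares follow from the levels above and were not tested on their own. They are not shares of all ADAMTS or cathepsin genes. *Adamts7*, outside the sum, had means of 9.70 and 12.1 TPM in putative unruptured and putative ruptured sides, against 7.48 and 16.2 TPM for *Adamts1*.

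**Figure D3:**
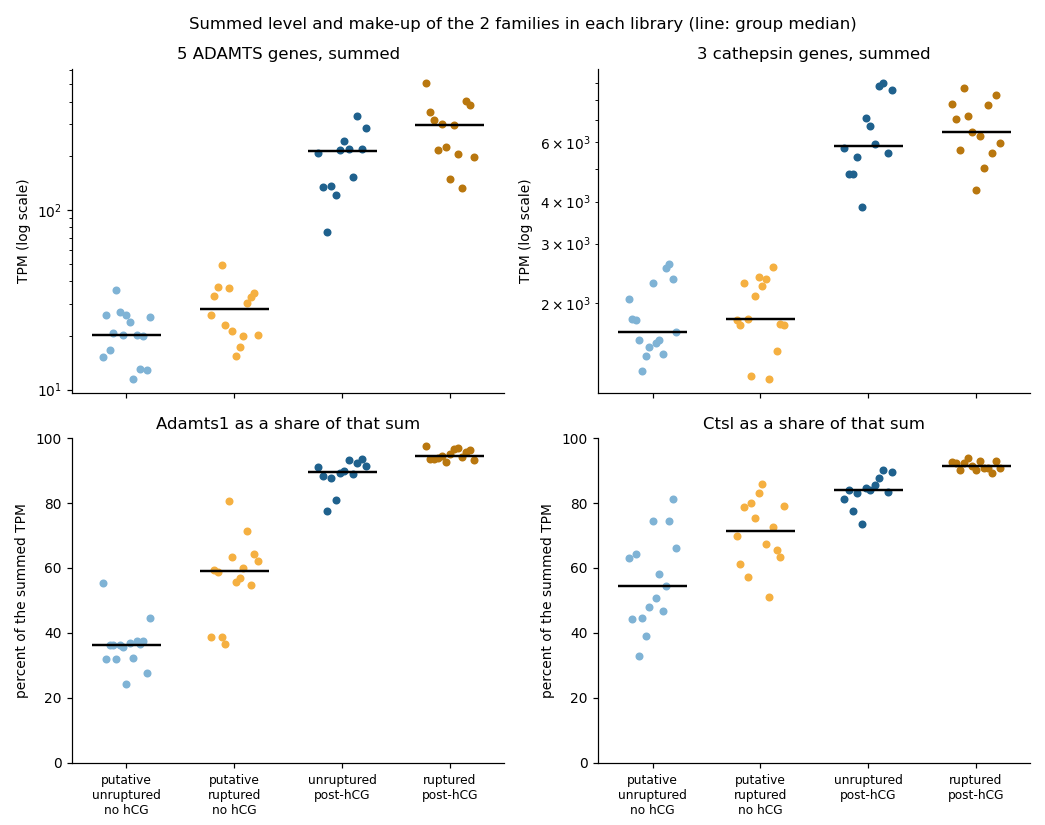
Summed TPM of the 5 ADAMTS genes and the 3 cathepsin genes (log scale, top) and the percent of that sum due to *Adamts1* and *Ctsl* (bottom) in each library, with lines for group medians. Median shares of *Adamts1* were 36.3% and 59.0% without hCG and 89.5% and 94.6% post-hCG, for the unruptured and the ruptured side. Other ADAMTS and cathepsin genes are not in the sums.

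A whole follicle side holds several cell types, and fewer cells of a type cannot be told apart from less RNA per cell. The summed level of 12 theca and stroma markers ran from 35.3 to 2810 TPM (median 537) in putative unruptured sides and from 5.76 to 577 TPM (median 41.1) in putative ruptured sides. Post-hCG it ran from 81.5 to 1415 TPM (median 359) in unruptured sides and from 3.27 to 57.3 TPM (median 6.43) on the ruptured side, where *Cyp17a1* was at 0 in all 13 libraries. Of the theca and stroma markers, 7 of the 9 tested were lower in putative ruptured sides and 6 of the 7 tested were lower on the ruptured side post-hCG. *Adamts2*, *Ctsb*, *Ctsd* and *Adamts9*, like these markers, were lower on the ruptured side post-hCG. Without hCG, where the markers were also lower in putative ruptured sides, only *Ctsb* of these members passed the test. The log2FC there was -0.12 for *Adamts2*, -0.16 for *Ctsd* and -0.28 for *Adamts9*. On the ruptured side post-hCG replicates 4 and 13 stood apart in these markers, with 57.3 and 56.3 TPM against a group median of 6.43 TPM. Within the 13 libraries of the ruptured side post-hCG, the correlation with the summed theca and stroma markers across libraries was 0.52 for *Adamts2*, 0.47 for *Ctsd*, 0.33 for *Ctsb* and 0.04 for *Adamts9* (Pearson, log2 scale). Within the 12 libraries of the unruptured side post-hCG it was 0.73, 0.03, 0.57 and 0.34 in the same order. The libraries share depth and dissection, and the part of theca content in the side differences was not tested.

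Summed levels of 15 macrophage and leukocyte markers had medians of 37.7, 1.23, 14.9 and 1.32 TPM in the 4 groups (putative unruptured, putative ruptured, unruptured post-hCG, ruptured post-hCG), and ran up to 191 TPM in the first group and 4.43 TPM in the last. *Adgre1*, *C1qb*, *C1qc* and *Tyrobp* were at 0 in all libraries of the ruptured side post-hCG. *Adamts1* and *Adamts5*, the members higher on the ruptured sides, were set beside the 10 granulosa markers. The sum of these markers ran from 860 to 5489 TPM (median 2691) in putative unruptured sides and from 3516 to 17480 TPM (median 10480) in putative ruptured sides. It ran from 912 to 1973 TPM (median 1416) in unruptured sides and from 771 to 1450 TPM (median 1191) on the ruptured side post-hCG. Without hCG 8 of these 10 markers were tested, and 6 were higher and 0 lower in putative ruptured sides. Post-hCG 5 were tested, and 2 were higher and 1 was lower on the ruptured side. The 1 marker at 0 in all libraries of the putative ruptured side and of the ruptured side post-hCG was *Amh*. The correlation with the granulosa sum within the 4 groups, in the order given above, was 0.62, 0.73, -0.37 and 0.41 for *Adamts5* and -0.16, 0.45, -0.26 and 0.27 for *Adamts1*. The part of granulosa cells in these differences was not tested. The correlation with the sum of 5 cumulus markers was 0.57, 0.34, 0.88 and 0.44 for *Adamts1* and -0.62, -0.22, 0.86 and 0.46 for *Ctsl* within the groups in the same order, so for *Ctsl* it was negative without hCG and positive post-hCG. *Ctsl* also had correlations of 0.67, 0.47, -0.47 and 0.335 with the granulosa sum and -0.70, -0.33, -0.01 and 0.31 with the theca and stroma sum. Over all 54 libraries *Adamts9* had a correlation of 0.65 with the cumulus sum. The part of these cell types was not tested.

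**Figure D4:**
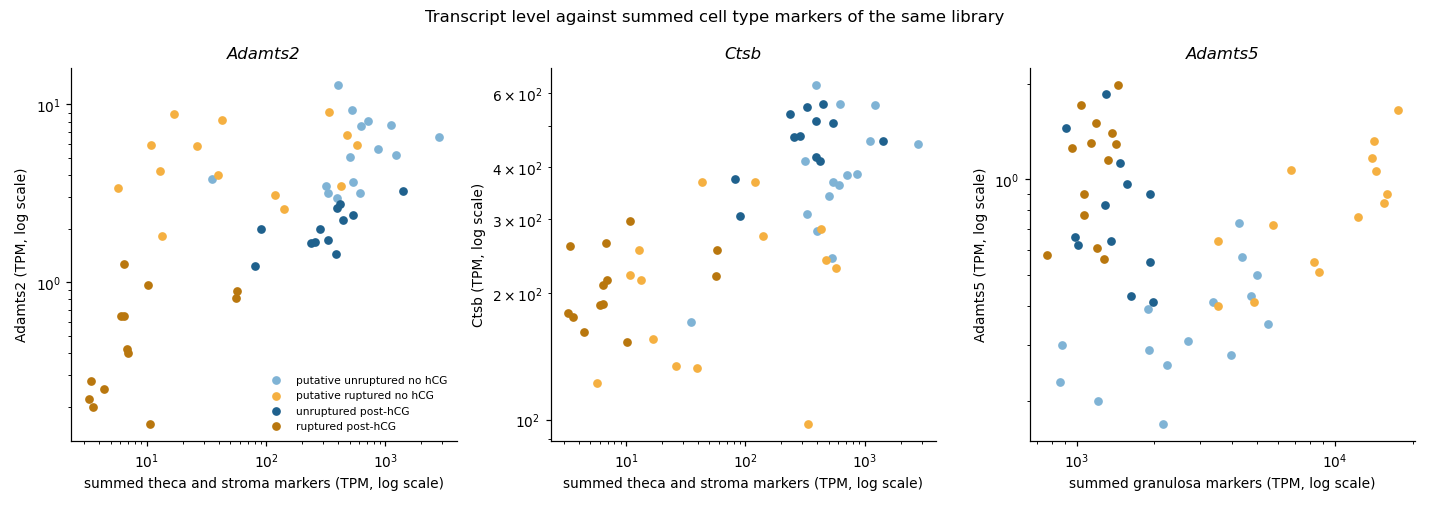
TPM of *Adamts2* and *Ctsb* against the summed theca and stroma markers and of *Adamts5* against the summed granulosa markers, all axes on log scales, with 1 point for each of the 54 libraries coloured by group. On the ruptured side post-hCG the theca and stroma sum stayed between 3.27 and 57.3 TPM and *Adamts2* between 0.16 and 1.27 TPM.

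Deviations from the group mean over the 54 libraries were compared between genes as a description. They share library depth, amplification and cell make-up. Of the 36 pairs of members, the highest Pearson correlations of log2(TPM + 1) were 0.79 for *Ctsb* and *Ctsd*, 0.70 for the neighbours *Adamts1* and *Adamts5*, and 0.60 for *Adamts4* and *Adamts9*. The lowest was -0.39 for *Adamts9* and *Ctsl*. Among 9888 genes averaging 1 TPM or more, the gene most like each member was *Poldip3* for *Adamts1* (r = 0.73), *Man1a* for *Adamts2* (0.65), *Akt2* for *Adamts4* (0.79), *Tox2* for *Adamts5* (0.72), *Cltc* for *Adamts9* (0.72), *Rnf34* for *Adam8* (0.49) and *Spsb1* for *Ctsl* (0.65). *Ctsb* and *Ctsd* were each other's most alike gene, with a correlation of 0.74 and 0.73 when the 2 libraries farthest from the median of either were left out.

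The related genes below come from lists of proteases, inhibitors, substrates and regulators. With hCG 25.4% of all genes tested were called higher and 27.7% lower on the unruptured side and 29.7% and 30.4% on the ruptured side, so list counts near these shares are not a result about a list. Between the sides 8.84% were higher and 8.96% lower without hCG, and 10% and 11.3% post-hCG.

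Of 14 other ADAMTS protease genes, 3 passed the filter with hCG. Of these, 2 fell on the unruptured side, and 1 rose and 2 fell on the ruptured side. *Adamts7*, which cleaves cartilage oligomeric matrix protein, fell 2.29-fold with hCG on the unruptured side (log2FC -1.19, SE 0.16, edgeR adjusted p = 1.2e-07) and 3.54-fold on the ruptured side (log2FC -1.82, SE 0.13, edgeR adjusted p = 8e-14). *Adamts10*, tied to fibrillin microfibrils, fell 1.74-fold and 3.03-fold. *Adamts3*, a procollagen N-propeptidase like *Adamts2*, rose 2.81-fold with hCG on the ruptured side (log2FC 1.49, SE 0.16, edgeR adjusted p = 1.9e-09) and was 1.75-fold higher there than on the unruptured side post-hCG (log2FC 0.81, SE 0.21, edgeR adjusted p = 0.0052). Both *Adamts7* (log2 difference -0.64, edgeR adjusted p = 0.037) and *Adamts10* (-0.82, edgeR adjusted p = 0.034) passed the interaction in the same direction as *Adamts2*. Of the 6 ADAMTS-like genes only *Adamtsl4* was tested, and its counts rose 13.2-fold and 27.9-fold with hCG, whereas its mean TPM moved from 2.29 to 5.25 and from 3.66 to 10, a much smaller change than in the counts.

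Among the ADAM genes, 3 of 6 tested rose and 2 fell with hCG on the unruptured side, and 3 of 7 rose and 2 fell on the ruptured side. *Adam19* (4.78-fold and 5.03-fold) and *Adam9* (2.20-fold and 2.23-fold) rose, in the order unruptured and ruptured side. *Adam23* (3.35-fold and 3.03-fold) and *Adam10* (1.19-fold and 1.5-fold) fell, in the same order. Without hCG 3 of 6 were higher in putative ruptured sides, *Adam22* 1.80-fold and *Adam10* 1.26-fold among them. The *Adam22* interaction passed with a positive value (log2 difference 1.40, SE 0.41, edgeR adjusted p = 0.023).

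Of the genes that act on ADAMTS enzymes, 3 of 9 tested rose and 3 fell with hCG on the unruptured side, and 3 of 7 rose and 4 fell on the ruptured side. The convertase genes *Pcsk5* (9.70-fold and 12.1-fold) and *Furin* (4.40-fold and 5.52-fold) rose on the unruptured and ruptured sides, and the inhibitor gene *Timp3* fell 3.58-fold (log2FC -1.84, SE 0.20, edgeR adjusted p = 3.8e-09) and 2.34-fold (log2FC -1.23, SE 0.26, edgeR adjusted p = 0.00013). *Timp3* was also 2.57-fold lower in putative ruptured sides and 1.69-fold lower on the ruptured side post-hCG. *Fbln1*, whose product is a co-factor of ADAMTS1, was 3.04-fold and 1.72-fold higher on the ruptured sides without hCG and post-hCG. With hCG it fell 1.95-fold on the ruptured side (log2FC -0.97, SE 0.20, edgeR adjusted p = 8.5e-05). The *Fbln1* interaction passed with a negative value (log2 difference -0.82, SE 0.27, edgeR adjusted p = 0.043). *Timp2*, another inhibitor gene of the list, fell 1.92-fold with hCG on the unruptured side. The inhibitor gene *A2m* rose with hCG on the ruptured side (log2FC 0.98), from a mean of 0.835 TPM to 1.48 TPM.

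Among the substrates of ADAMTS enzymes 1 of 6 tested rose and 2 fell with hCG on the unruptured side, and 1 of 5 rose and 2 fell on the ruptured side. Between the sides 2 of 6 were higher and 3 lower in putative ruptured sides, and 2 of 6 were higher and 4 lower on the ruptured side post-hCG. *Vcan*, the versican gene, rose 9.08-fold with hCG on the unruptured side (log2FC 3.18, SE 0.17, edgeR adjusted p = 3.1e-16) and 10.5-fold on the ruptured side (log2FC 3.39, SE 0.19, edgeR adjusted p = 3.7e-16), from medians of 22.5 and 38.1 TPM to 209 and 340 TPM. Like *Adamts1* it was higher on the ruptured sides, 2-fold without hCG and 2.29-fold post-hCG. The fibrillar procollagen genes *Col1a2* and *Col3a1*, whose products ADAMTS2 trims, were 18.1-fold (log2FC -4.18, SE 0.48, edgeR adjusted p = 1.8e-07) and 30.7-fold lower (log2FC -4.94, SE 0.63, edgeR adjusted p = 8.6e-07) on the ruptured side post-hCG. Without hCG *Col1a2* was 4.03-fold (edgeR adjusted p = 0.026) and *Col3a1* 5.42-fold lower (edgeR adjusted p = 0.024) in putative ruptured sides, where *Adamts2* did not pass the test. *Col1a2* and *Col3a1* are also theca and stroma markers of the sums above. *Comp*, a substrate of ADAMTS7, was 4.63-fold higher in putative ruptured sides and 2.63-fold higher on the ruptured side post-hCG.

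Of 6 other cathepsin genes tested with hCG, 3 fell in unruptured and 4 in ruptured sides, whereas *Ctsl* rose on both. *Ctsh* fell 3.20-fold (log2FC -1.68, SE 0.28, edgeR adjusted p = 5.8e-06) and 7.37-fold (log2FC -2.88, SE 0.27, edgeR adjusted p = 5e-11), and its interaction passed (log2 difference -1.21, SE 0.39, edgeR adjusted p = 0.040). *Ctso* fell 2.39-fold and 3.31-fold. Post-hCG 4 of 6 were lower on the ruptured side, with *Ctsh* 1.6-fold and *Ctso* 1.49-fold lower, and *Ctsc* was 1.81-fold higher.

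Of 4 cathepsin inhibitor genes tested, 1 rose and 3 fell with hCG on each side. *Cst3*, the gene of cystatin C, fell 2.30-fold on the unruptured side and 2.47-fold on the ruptured side with hCG, and was 1.56-fold lower on the putative ruptured and 1.67-fold lower on the ruptured side post-hCG. *Cstb*, the gene of the intracellular cystatin B, rose 3.31-fold and 5.11-fold with hCG. *Serpinb6b* fell 3.11-fold and 1.98-fold. Of 22 lysosome genes tested on the unruptured side 6 rose and 11 fell with hCG, and of 21 on the ruptured side 6 rose and 11 fell, 1 of them, *Lamp1*, higher with TMM factors (log2FC 0.31) and at -0.03 with library totals. *Psap*, the gene of prosaposin, rose 5.75-fold and 12.2-fold, and *Npc2*, which carries cholesterol in the lysosome, rose 2.87-fold and 2.18-fold. *Hexa*, *Glb1* and *Igf2r* fell, the first 1.64-fold on the unruptured side and the last 2.35-fold on the ruptured side. The *Psap* interaction passed (log2 difference 1.08, SE 0.19, edgeR adjusted p = 0.00016).

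Among 12 regulators of the LH response tested, 3 rose and 5 fell with hCG on the unruptured side, and 3 rose and 7 fell on the ruptured side. *Runx2* rose 17.9-fold and 31.8-fold and *Lhcgr*, the LH receptor gene, 14.9-fold and 18.3-fold. *Jun* fell 9.32-fold and 20.9-fold and *Fos* 7.97-fold and 14.3-fold, both immediate early genes. On the ruptured side *Runx2* was 1.73-fold and *Lhcgr* 2.43-fold higher than on the unruptured side post-hCG. The progesterone receptor gene *Pgr* did not pass the filter and ran up to 0.43 TPM in putative unruptured sides and 0.22 TPM on the ruptured side post-hCG. All libraries were taken after 12 h in maturation medium, so *Pgr* at earlier times was not measured. Without hCG *Hif1a* was 2.45-fold higher and *Cebpd* 2.20-fold lower in putative ruptured sides.

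**Figure D5:**
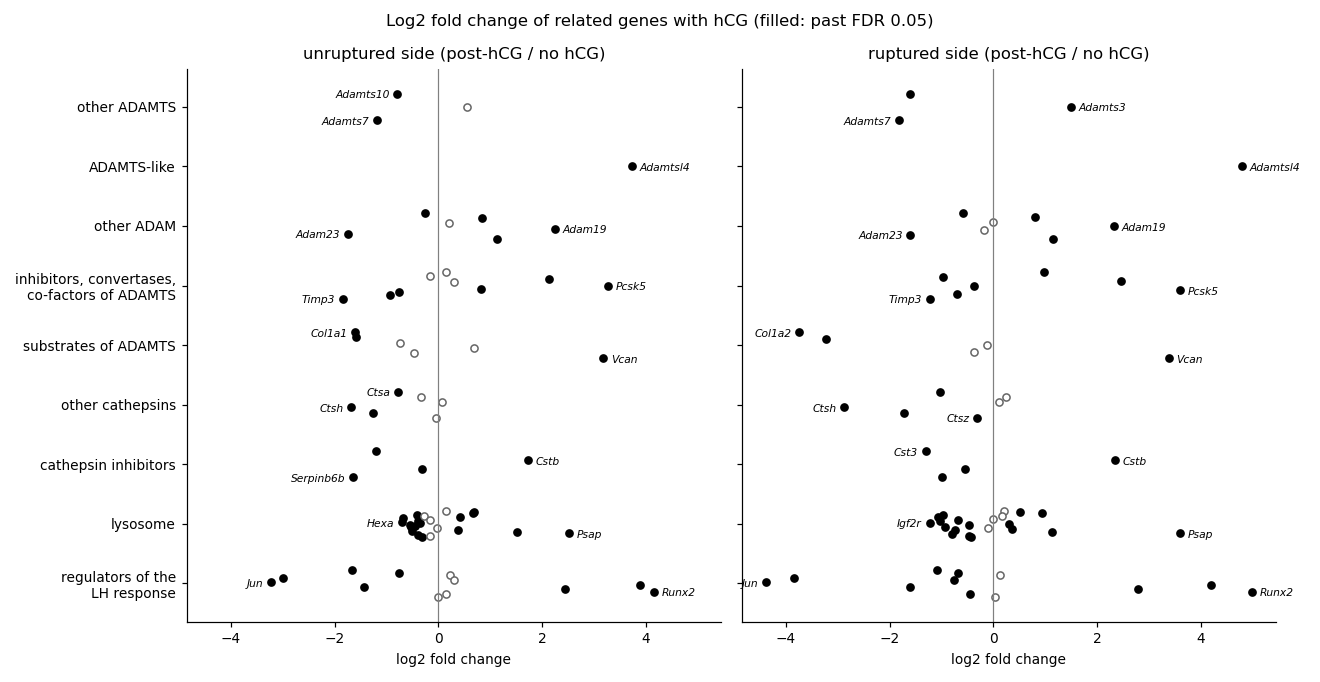
Log2 fold change with hCG on the unruptured side (left) and the ruptured side (right) for genes of 9 lists related to ADAMTS proteases and cathepsins. Each point is a gene tested and filled points passed an FDR of 0.05. *Psap* lies at 2.52 and 3.61 and *Ctsh* at -1.68 and -2.88 on the unruptured and ruptured side. *Lamp1* with hCG on the ruptured side, at 0.31, turned to -0.03 with library totals.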

How the data were processed

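Libraries were made with Smart-Seq2 from single follicle sides. The authors aligned reads to GRCm38 with HISAT2 and used ComBat-seq, and the submitters' processing notes also name mm10 and Seurat 4. The counting program, the annotation and whether the tables precede batch correction are not given in the sources used here. The deposited estimated counts per gene were not all whole (72.2% of the values above 0 were) and were rounded. The deposited TPM values summed to between 585982 and 678417 per library, and both tables held coding genes. Every column was matched to a library (0 were not).

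Groups followed the labels. Counts were tested with edgeR 4.0.16 (R 4.3.3; quasi-likelihood F-test, TMM factors, filterByExpr with min.count 10 and min.total.count 15, Benjamini-Hochberg adjustment, FDR 0.05), second group minus first, in 5 comparisons that share libraries. Alternatives were other scalings, no filter, DESeq2 1.42.0, limma 3.58.1 on log2(TPM + 1) or log2(TPM + 0.1), 1 fit of all groups, thinned counts, a replicate block and leaving out 2 libraries. Totals of 1497071 to 2834734 counts limit the precision of low genes. Scripts were tested on simulated data.

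The 9 genes and all lists were chosen with earlier results of these data known. From each list up to 2 genes per direction and comparison with the largest change past the FDR were named. *Pgr* and the rise of *A2m* with hCG were added after their values were seen. Smart-Seq2 does not mark strand. Promoter windows came from RefSeq and gene positions from GENCODE. One overlap of a member with another gene is not reported here.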

Additional observations from a re-analysis of the deposited data

Results flagged for a closer look

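The response of *Adamts2* to hCG differed between the sides. The difference of its log2FC, ruptured minus unruptured side, was -1.545 (SE 0.33, edgeR adjusted p = 0.0012), from -2.96 on the ruptured side and -1.42 on the unruptured side. It passed in 10 of 10 alternatives, where it ran from -1.72 to -0.85 with edgeR, DESeq2 and limma adjusted p-values from 0.00018 to 0.022. All 13 libraries of the ruptured side post-hCG lay below all libraries of the putative ruptured side. The *Adamts2* counts there summed to 186, and the theca and stroma markers were lower there as well, whose part was not tested.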

How the results depend on the processing

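Of 415 values for 45 results under the alternatives, 397 kept their direction and their side of the threshold, 9 no longer passed and 9 turned. *Ctsd* with hCG on the ruptured side, a called value, turned to -0.04481 with library totals (edgeR adjusted p = 0.75). The other 8 passed in neither case. Library totals turned *Adamts9* (-0.1146) and *Ctsb* (-0.07553) with hCG on the unruptured side and *Ctsb* on the ruptured side (-0.2312). *Adamts9* with hCG on the ruptured side turned to 0.02258 with thinned counts and 0.01481 with the replicate block. In the interaction *Adamts4* turned to -0.1435 and -0.01998 with limma on log2(TPM + 1) and log2(TPM + 0.1), and *Ctsb* to 0.01178 with the replicate block. The number of members called stayed at 3 between the sides without hCG and at 1 for the interaction, and ran from 5 to 6 between the sides post-hCG, 6 to 7 with hCG on the unruptured side and 4 to 6 on the ruptured side. For all genes, 1613 passed between the sides without hCG, against 1057 and 1052 with limma on log2(TPM + 1) and log2(TPM + 0.1). Limma on log2(TPM + 1) gave 214 higher and 2166 lower between the sides post-hCG, 1568 and 3005 with hCG on the ruptured side and 85 and 677 for the interaction. The causes were not tested. A replicate block kept 3, 6, 6, 6 and 1 members called in the order sides without hCG, sides post-hCG, hCG on the unruptured side, hCG on the ruptured side and interaction. In the main fits replicate numbers were not treated as pairs. The labels do not say that equal numbers mark the same follicle, and 1 of 14 and 2 of 12 same-numbered pairs had a correlation of deviations over 0.1. Any pairing of the sides by follicle was thus left out of the side tests. Depth limits *Adam8* (38 to 96 counts per group) and *Adamts5* (185 to 446).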
